A study of Sus scrofa with 12 samples.

Results

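Genes that encode proteins of focal adhesions, and of the actin cross-links attached to them, were followed across the series: VCL, TLN1, PXN, ZYX, ACTN1, ACTN4, FLNA, ACTB, ACTG1 and FHL2. They were taken as a list of names, drawn up with earlier results of these data known, and all 10 were found in the annotation of 24358 genes. The libraries were made from pig induced pluripotent stem cells that had been reprogrammed from pericytes (PC-iPS). There were 12 RNA-seq libraries in 4 groups of 3. WT PC-iPS cells carried no reporter, and were cultured in LCDMV medium (LIF, CHIR99021, dimethindene, minocycline and vitamin C). The NANOG knock-in group was 3 lines of the same cells with a tdTomato reporter placed at NANOG by CRISPR/Cas9, sorted for tdTomato fluorescence and not derived from single cells. The Activin A and SB431542 groups were knock-in cells given Activin A, a ligand of the TGF-beta family, or SB431542, an inhibitor of the type I receptors that Activin A and TGF-beta use. Those treated cells were grown, by the study's methods, in the same medium without LIF. The study describes doses, and culture over several passages, for its treatments in general, but does not tie a dose or a duration to the sequenced cells. To remove feeder cells, dissociated cells were plated for 1 h and RNA was taken from those still in suspension. The study describes the attached cells as mainly feeders. It used feeder cells in some experiments and Matrigel without feeders in others, and does not say which was used for each sequenced group.

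Focal adhesions are the sites at which integrins of the cell membrane are tied to actin filaments. Talin binds the tails of integrins and, when it is stretched, exposes sites for vinculin, which in turn holds actin. Paxillin is a docking protein for kinases and adaptors, and zyxin is recruited to adhesions and stress fibres under tension. Alpha-actinins and filamin A cross-link actin filaments, and beta- and gamma-actin are the cytoplasmic actins that form the filaments themselves. Many of these genes are known targets of serum response factor (SRF), whose coactivators are held in the cytoplasm by unpolymerized actin. FHL2 is a LIM-domain protein found at adhesions and in the nucleus.

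The values were FPKM, that is, fragment numbers corrected for how long a gene is and how deeply a library was sequenced, in a table for WT and knock-in cells and in another for the treated cells. Tests were run only within a table. Differences were tested with limma on log2(FPKM + 1), so a log2 fold change understates the change of a low gene. A gene "passed" at an adjusted p (Benjamini-Hochberg over all genes tested) of at most 0.05 and was "called" when its log2 fold change was also at least 1 in size. The exact permutation test on 3 against 3 libraries cannot give a p below 0.1. Read totals were not in the tables. The depth relative to the deepest library, read from the steps between low FPKM values, was 0.566 to 0.633 in WT, 0.727 to 1 in knock-in, 0.859 to 0.986 in Activin A and 0.835 to 0.946 in SB431542 libraries. NANOG was at 9.71 to 27.6 FPKM in WT, 52.0 to 101 in knock-in, 109 to 195 in Activin A and 11.8 to 27.2 in SB431542 libraries. Between Activin A and SB431542 the log2 fold change was 3.18 for NANOG and 1.80 for SMAD7, known targets of Activin signalling (limma adjusted p = 0.0424 and 0.0237, and up to 0.202 and 0.145 over the alternatives). LEFTY2, another such target, measured 1.37, 0.783 and 1.20 FPKM with Activin A and was listed at 0 in the 3 SB431542 libraries. The pluripotency markers SOX2, LIN28A and SALL4 were present in every library, whereas DPPA2 and ZFP42 were listed at 0 and EPCAM stayed under 0.6 FPKM in all of them.

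In the knock-in lines 9 of the 10 genes passed as higher than in WT cells, all but TLN1 (adjusted p = 0.0762), where 4.88% of all genes did. With 1 library left out 4 to 9 passed, and only VCL, ZYX and ACTB did so whichever library was left out. Between Activin A and SB431542 only VCL was called, lower with Activin A as 0.0357% of all genes were, and it missed the threshold without any single library (adjusted p of 0.0595 to 0.202). Across the 4 groups, every WT library lay below all 9 libraries of knock-in origin for 10 of 10 genes, an arrangement that 12% of the 13696 genes tested in both tables showed. VCL was the only gene of the 10 for which no library of any group overlapped another group.

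**Figure D1:**
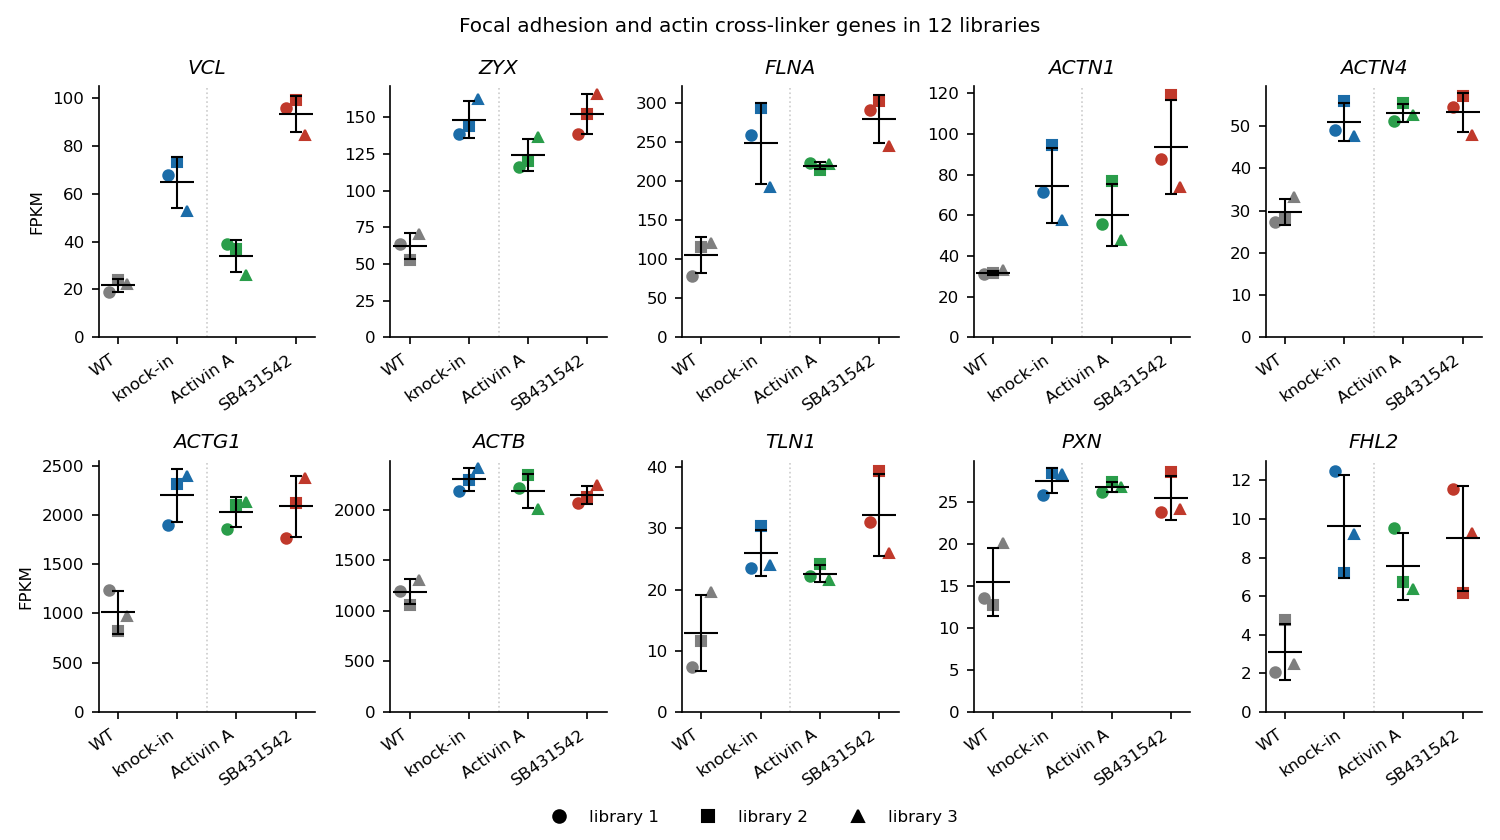
FPKM (y axis, from 0) of the 10 genes in each library of the 4 groups (x axis), with circles, squares and triangles for libraries 1, 2 and 3, and the mean with its SD in black. The dotted line separates the 2 tables. WT libraries are lowest in every panel, and VCL separates all 4 groups.

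VCL (ENSSSCG00000010313; Sscrofa11.1, chr14:76700143-76811875) encodes vinculin. It measured 18.8, 23.8 and 22.4 FPKM in WT libraries 1 to 3, and 67.9, 73.2 and 53.0 FPKM in the 3 knock-in lines. Every knock-in line was above every WT library. The means were 21.7 ± 2.55 and 64.7 ± 10.5 FPKM (SD, n = 3 each), a ratio of 2.98, and the log2 fold change was 1.53 (SE 0.15, 95% interval 1.18 to 1.88, limma adjusted p = 0.00426). VCL remained called without any single library.

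With Activin A, VCL measured 38.9, 36.9 and 26.1 FPKM, and with SB431542 it measured 96.0, 99.2 and 84.7 FPKM. The groups were far apart, since the highest Activin A library lay below the lowest SB431542 library by more than the range of either group. The means were 34.0 ± 6.87 and 93.3 ± 7.61 FPKM (SD, n = 3 each), 2.75-fold higher with SB431542. By library number the ratio of SB431542 to Activin A was 2.46, 2.69 and 3.24. The log2 fold change, Activin A minus SB431542, was -1.45 (SE 0.16, 95% interval -1.82 to -1.08, limma adjusted p = 0.0424), and VCL ranked 12 among 13999 genes by p. With the library number as a block, the SE fell to 0.08 and the adjusted p was 0.0138. The call was close to the threshold: without any single library the log2 fold change was between -1.55 and -1.27 and the adjusted p between 0.0595 and 0.202. The adjusted p was 0.145, 0.134 and 0.0595 without Activin A library 1, 2 or 3, and 0.202, 0.113 and 0.0996 without SB431542 library 1, 2 or 3.

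Set beside the untreated knock-in line of the same number, VCL with Activin A was 0.574, 0.503 and 0.493 of the untreated level, and with SB431542 it was 1.413, 1.355 and 1.599 of that level. The untreated lines therefore lay between the treated groups, and Activin A libraries lay between WT and untreated knock-in libraries. These ratios cross the 2 tables and the media with and without LIF, and were not tested. The order WT, Activin A, knock-in, SB431542 with no overlap at any step was found in 13 of 13696 genes (0.0949%): VCL, CORO1C, ACTA2, TRIM71, FIGNL2, FAM167A, INSR, BRD1, BRPF3, PDE4DIP, MAK, HMX3 and DIPK2A. This list was drawn up after VCL's values were seen.

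Zyxin, encoded by ZYX (ENSSSCG00000016461; chr18:6861072-6870256), measured 63.4, 52.5 and 70.3 FPKM in WT and 139, 144 and 162 FPKM in knock-in libraries. It was called higher in knock-in lines, with a log2 fold change of 1.25 (SE 0.13, limma adjusted p = 0.00485), and remained called without any single library. Levels were 116, 120 and 137 FPKM with Activin A and 139, 152 and 166 FPKM with SB431542. The Activin A libraries were all below the SB431542 libraries, by a small step: the ratio of SB431542 to Activin A was 1.20, 1.26 and 1.21 by number. Without a block the log2 fold change of -0.29 (SE 0.09) had a limma adjusted p of 0.294. With the number as a block the SE was 0.04 and the adjusted p 0.0481, so that ZYX passed only in that fit. Relative to the untreated line of the same number, ZYX was at 0.837, 0.835 and 0.841 with Activin A and at 1.00, 1.06 and 1.02 with SB431542.

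Talin 1, the link from integrin to vinculin, is encoded by TLN1 (ENSSSCG00000005317; chr1:236416041-236450978). Relative to their mean, its WT levels were the most scattered of the 10 genes, at 7.39, 11.6 and 19.6 FPKM, and the knock-in lines measured 23.6, 30.4 and 24.1 FPKM. All knock-in lines were above all WT libraries, but TLN1 was the member that did not pass (log2 fold change 1.05, SE 0.30, limma adjusted p = 0.0762). Without WT library 3, the highest of that group, the log2 fold change was 1.39 and the adjusted p 0.0203. With any other library left out TLN1 did not pass (adjusted p of 0.127 to 0.208). The log2 fold change was lowest, at 0.74, without WT library 1. In the treated cells TLN1 measured 22.2, 24.2 and 21.5 FPKM with Activin A and 31.1, 39.4 and 26.1 FPKM with SB431542. These groups did not overlap, yet the log2 fold change of -0.47 (SE 0.15) had an adjusted p of 0.281, and of 0.0729 with the block.

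PXN (ENSSSCG00000040546; chr14:40227894-40278785) encodes paxillin. It measured 13.6, 12.7 and 20.1 FPKM in WT and 25.7, 28.4 and 28.3 FPKM in knock-in libraries, a log2 fold change of 0.82 (SE 0.17, limma adjusted p = 0.0365) that passed but was under the fold needed for a call. With 1 library removed at a time, it passed only without WT library 3 (adjusted p = 0.0116), and it missed the threshold with no filter on low values (0.0627). The others gave adjusted p of 0.110, 0.121 and 0.0816 without knock-in line 1, 2 or 3, and of 0.1002 and 0.0853 without WT library 1 or 2. With Activin A, PXN measured 26.2, 27.4 and 26.7 FPKM, and with SB431542 23.8, 28.5 and 24.1 FPKM. The groups overlapped, and the 95% interval of the log2 difference was -0.14 to 0.29.

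The actin cross-linkers came next. ACTN1 (ENSSSCG00000036702; chr7:92550132-92644842) encodes alpha-actinin 1, and had the tightest WT values, at 31.0, 31.5 and 32.9 FPKM, against 71.4, 94.6 and 57.9 FPKM in the knock-in lines. It was called higher in knock-in lines (log2 fold change 1.18, SE 0.17, limma adjusted p = 0.0151). The adjusted p was 0.0569 without knock-in line 1 and 0.0510 without WT library 1, and without knock-in line 2 the gene passed but the log2 fold change was 0.99. With Activin A it measured 55.6, 76.8 and 47.6 FPKM, and with SB431542 87.8, 119 and 74.1 FPKM. The groups overlapped, because library 2 was high and library 3 low in each of them. Within a number the ratio of SB431542 to Activin A was almost constant, at 1.58, 1.55 and 1.56. The log2 fold change of -0.63 had an SE of 0.22 and a limma adjusted p of 0.323 without the block, and an SE of 0.04 and an adjusted p of 0.0150 with it.

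ACTN4 (ENSSSCG00000002965; chr6:47493834-47565999) encodes alpha-actinin 4, the close relative of alpha-actinin 1. It measured 27.4, 28.4 and 33.2 FPKM in WT and 49.1, 56.0 and 47.7 FPKM in knock-in libraries. It passed, with the smallest log2 fold change of the 10 genes (0.76, SE 0.11, limma adjusted p = 0.0168), and missed the threshold without knock-in line 1 (0.0651) or knock-in line 2 (0.0665). With Activin A it measured 51.2, 55.5 and 52.7 FPKM and with SB431542 54.6, 57.1 and 48.0 FPKM. The means were 53.1 and 53.3 FPKM and the 95% interval of the log2 difference was -0.20 to 0.20. The ratio of ACTN1 to ACTN4 was thus 1.08 ± 0.08 in WT, 1.45 ± 0.24 in knock-in, 1.13 ± 0.24 in Activin A and 1.74 ± 0.30 in SB431542 libraries (SD, n = 3 each). The ratio did not overlap between knock-in and WT or between Activin A and SB431542 (exact two-sided permutation p = 0.1 each, the smallest possible). Reads from stretches that the 2 actinin genes share could have been divided between them in the counting, so this ratio is uncertain to that extent.

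FLNA (ENSSSCG00000033299; chrX:124889934-124915000) encodes filamin A, which joins crossing filaments into networks. It measured 78.7, 116 and 121 FPKM in WT and 259, 294 and 192 FPKM in knock-in libraries, and was called higher (log2 fold change 1.24, SE 0.21, limma adjusted p = 0.0217). The adjusted p was 0.0821 without knock-in line 1, 0.0716 without knock-in line 2 and 0.0521 without WT library 1. With Activin A its 3 libraries were nearly level, at 223, 215 and 222 FPKM, and with SB431542 they measured 291, 303 and 245 FPKM. The groups did not overlap and the means differed 1.27-fold, but the log2 fold change of -0.34 (SE 0.09) did not pass (adjusted p = 0.215, and 0.0936 with the block).

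The cytoplasmic actins were among the most abundant transcripts by FPKM. ACTB (ENSSSCG00000007585; chr3:4084275-4090383) measured 1197, 1061 and 1306 FPKM in WT and 2190, 2298 and 2418 FPKM in knock-in libraries. ACTG1 (ENSSSCG00000028355; chr12:1320355-1323219) measured 1242, 819 and 971 FPKM in WT and 1895, 2309 and 2393 FPKM in knock-in libraries. For each gene all knock-in lines were above all WT libraries. ACTB rose by a log2 fold change of 0.96 (SE 0.12, limma adjusted p = 0.0104), just under the fold needed for a call, and passed without any single library. ACTG1 was called (1.13, SE 0.18, adjusted p = 0.0184), but without knock-in line 2 the adjusted p was 0.0689, and without WT library 2 the log2 fold change was 0.99. Together the 2 actins took 0.573% of all FPKM in WT and 1.20% in knock-in libraries.

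Neither actin separated the treated groups. ACTB measured 2211, 2345 and 2003 FPKM with Activin A and 2064, 2128 and 2243 FPKM with SB431542. ACTG1 measured 1853, 2101 and 2134 FPKM with Activin A and 1760, 2123 and 2373 FPKM with SB431542. The 95% intervals of the log2 difference were -0.19 to 0.24 for ACTB and -0.34 to 0.27 for ACTG1, so a change of the size seen for VCL lay outside both. The ratio of ACTB to ACTG1 was 1.20 in WT, 1.05 in knock-in, 1.08 in Activin A and 1.04 in SB431542 libraries, with overlap in both comparisons. Because the coding sequences of the 2 actins are nearly identical, the division of reads between them is uncertain.

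FHL2 (ENSSSCG00000008147; chr3:49389900-49448459) was the lowest of the 10 genes. It measured 2.08, 4.78 and 2.49 FPKM in WT and 12.5, 7.20 and 9.20 FPKM in knock-in libraries, and was called higher (log2 fold change 1.39, SE 0.28, limma adjusted p = 0.0333). With 1 library removed at a time, it passed only without WT library 2 (adjusted p = 0.0305), and it missed the threshold with no filter on low values (0.0644). The others gave adjusted p of 0.115, 0.0685 and 0.0692 without knock-in line 1, 2 or 3, and of 0.0908 and 0.0573 without WT library 1 or 3. With Activin A, FHL2 measured 9.53, 6.75 and 6.35 FPKM and with SB431542 11.6, 6.16 and 9.25 FPKM. The groups overlapped, and the 95% interval of the log2 difference, -0.77 to 0.36, was the widest of the 10 genes.

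Counted together, 6 of the 10 genes were called higher in knock-in than in WT cells (VCL, ZYX, FLNA, ACTN1, ACTG1 and FHL2), where 1.61% of the 14014 genes tested were called higher. By adjusted p alone 9 of 10 passed, all but TLN1, against 4.88% of all genes. No member was called or passed as lower, against 0.706% of all genes called and 2.34% passed. All 3 knock-in lines lay above all 3 WT libraries for 10 of 10 genes, against 19% of all genes. The genes share libraries and were not independent of each other. With a library left out, 4 to 9 of the 10 genes passed and 2 to 8 were called: 4, 4 and 7 passed without knock-in line 1, 2 or 3, and 5, 8 and 9 without WT library 1, 2 or 3. The labels do not say whether the WT libraries came from separate cultures, so these p-values measure the spread between libraries, which may be partly technical.

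Between Activin A and SB431542, 1 of the 10 genes, VCL, was called lower with Activin A, against 0.0357% of all genes. The share of all genes that passed in that direction by adjusted p alone was 0.0429%, again with VCL as the sole member. In 4 of the 10 (VCL, ZYX, FLNA and TLN1) all Activin A libraries lay below all SB431542 libraries, against 10.8% of all genes. With the library number as a block, VCL, ZYX and ACTN1 passed, where 1.21% of all genes passed in the lower direction. No member was called or passed as higher with Activin A, a direction in which 0.0571% of all genes were called and 0.0929% passed. At an unadjusted limma p under 0.05, 5 members were lower with Activin A (VCL, ZYX, FLNA, ACTN1 and TLN1) and 0 were higher, against 6.76% and 6.07% of all genes.

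**Figure D2:**
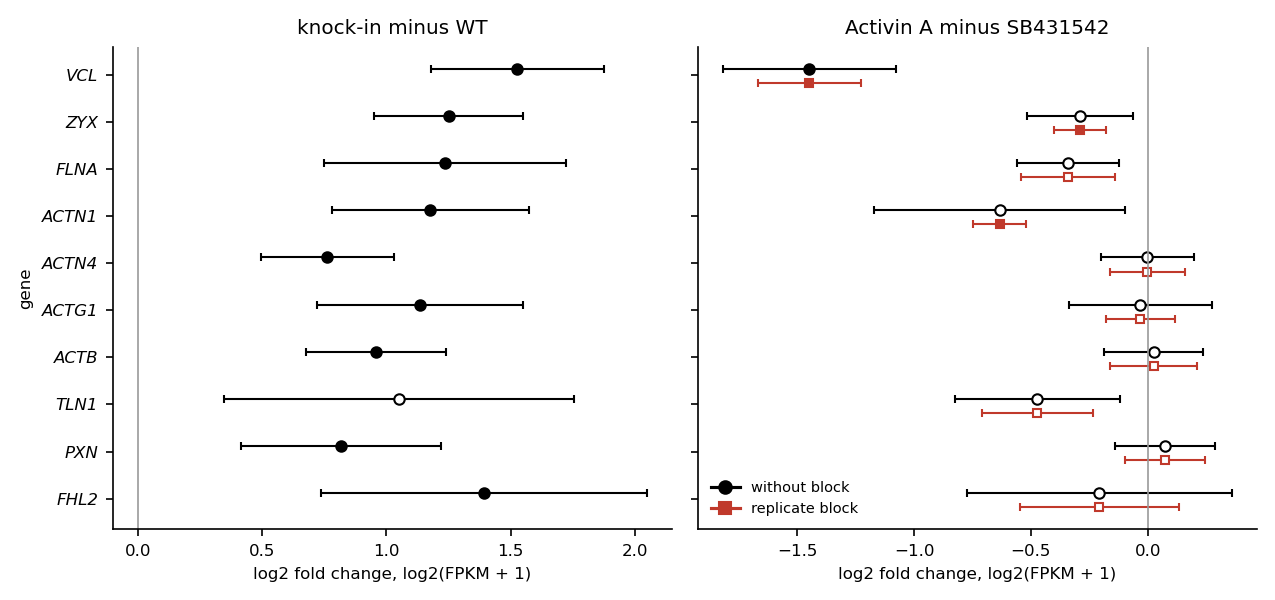
Log2 fold change on the log2(FPKM + 1) scale (x axis) of the 10 genes (y axis) with 95% intervals, for knock-in minus WT and for Activin A minus SB431542. Black circles show the fit without a block and red squares that with the library number as a block; filled symbols have an adjusted p of at most 0.05. Every knock-in change is above 0, and VCL lies farthest from 0 in the right panel.

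Compared with the untreated line of the same number, the 10 genes fell into different patterns. They are given without a test because the values come from 2 tables, and from media with and without LIF. VCL, ZYX and ACTN1 were below the untreated line in 3 of 3 Activin A libraries and above it in 3 of 3 SB431542 libraries. For ZYX the SB431542 ratios were close to 1, at 1.00, 1.06 and 1.02. For ACTN1 the ratios were 0.779, 0.813 and 0.823 with Activin A and 1.23, 1.26 and 1.28 with SB431542. TLN1 shared that arrangement, at 0.940, 0.797 and 0.893 and at 1.32, 1.298 and 1.08. How common the arrangement was over all genes was not counted. FLNA was above the untreated line in 3 of 3 SB431542 libraries but ran from 0.729 to 1.16 with Activin A. ACTG1 was below the untreated line in all 6 treated libraries, at 0.892 to 0.992. ACTB, PXN and ACTN4 stayed between 0.829 and 1.11, and FHL2 ran from 0.690 to 1.01.

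**Figure D3:**
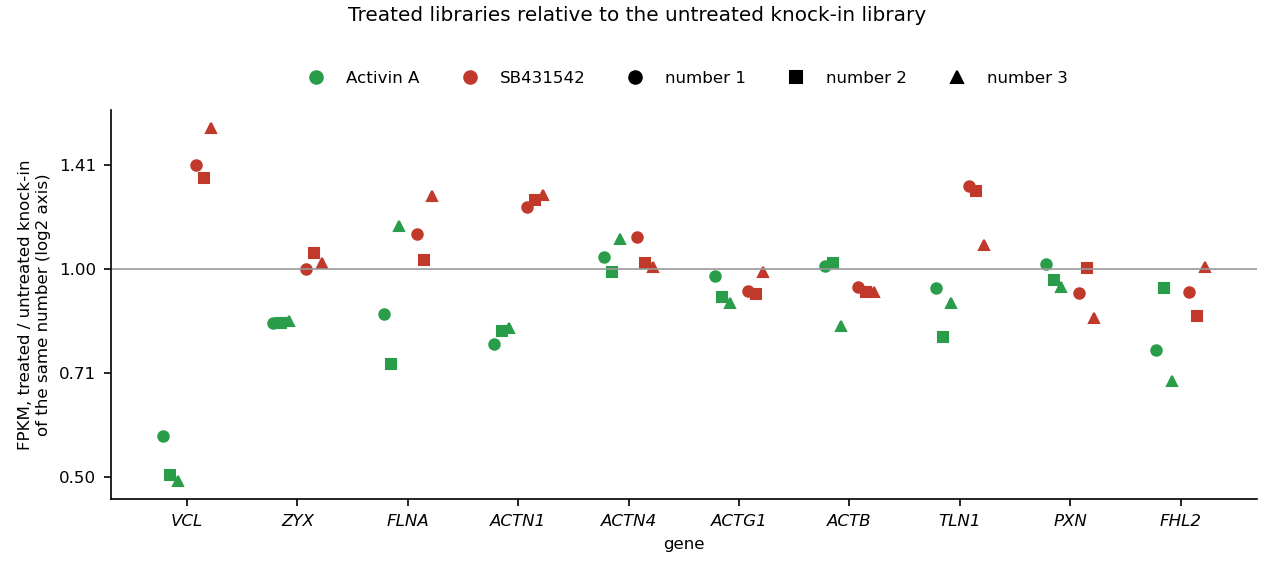
FPKM of each treated library divided by that of the untreated knock-in library with the same number (y axis, log2-scaled), for the 10 genes (x axis), with Activin A in green and SB431542 in red. Shapes stand for numbers 1, 2 and 3, and the line marks a ratio of 1. VCL is at 0.493 to 0.574 with Activin A and at 1.35 to 1.60 with SB431542.

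Library numbers were also compared across the groups of knock-in origin. In 4 of the 10 genes the 3 numbers stood in the same order in the untreated, Activin A and SB431542 groups, against 18.8% of all genes, and in the other 6 they did not. ZYX and ACTG1 were highest in number 3 and lowest in number 1, ACTN1 was highest in number 2 and lowest in number 3, and PXN was highest in number 2 and lowest in number 1. In the treated table, 1 of the 10 genes, ACTN1, passed a limma F-test for library number given treatment (adjusted p = 0.0335), against 1.54% of all genes; ZYX and ACTG1 had an adjusted p of 0.133 each. ACTN1 no longer passed when genes of low FPKM were kept in the test or when the variance trend was dropped.

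Within libraries, the level of VCL relative to other adhesion genes differed between the treated groups. The ratio of VCL to TLN1 was 1.498 ± 0.272 with Activin A and 2.95 ± 0.39 with SB431542, that of VCL to PXN 1.27 ± 0.26 and 3.68 ± 0.31, and that of VCL to ZYX 0.278 ± 0.076 and 0.619 ± 0.095 (SD, n = 3 each). VCL to ACTN1 was 0.576 ± 0.113 and 1.02 ± 0.17. None of these 4 ratios overlapped between the treated groups (exact two-sided permutation p = 0.1 each, the smallest possible; 9 quantities were compared in each of the 2 comparisons, and none could pass 0.05). All 4 ratios hold VCL, which was itself 2.75-fold higher with SB431542. They therefore largely restate that difference and are not 4 separate results. Between knock-in and WT cells VCL to ACTN1 did not overlap (0.881 and 0.682), whereas the ratios of VCL to TLN1, PXN and ZYX did.

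**Figure D4:**
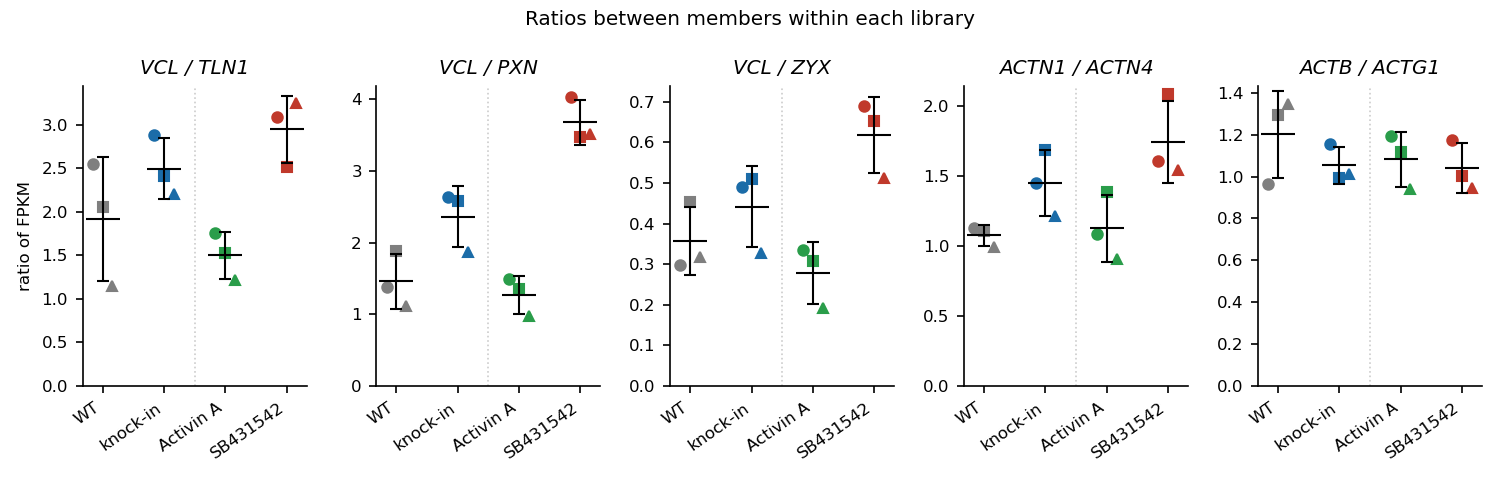
Ratios of FPKM within each library (y axis, from 0) for 5 pairs of genes in the 4 groups (x axis), with shapes for libraries 1, 2 and 3 and the mean with its SD in black. The 3 ratios with VCL and the ratio of ACTN1 to ACTN4 separate Activin A from SB431542, and that of ACTB to ACTG1 does not.

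Apart from the 10 members, the genes whose levels followed VCL most closely over the 12 libraries were found by the mean absolute difference of log2(FPKM + 1), each gene centred on its own mean, among 7679 genes with a mean of at least 5 FPKM. They were TPM1, a tropomyosin that lies along actin filaments (0.211 log2 units), TRIM71 (0.243), FIGNL2 (0.263), TEAD4, a DNA-binding partner of YAP and TAZ (0.284), and FAM167A (0.301). Of the other 9 members the closest was ACTN1 at 0.291, with 4 genes nearer to VCL, followed by FLNA at 0.364 with 25 and TLN1 at 0.397 with 42. PXN was the farthest, at 0.571. TPM1 measured 26.2 ± 6.57 FPKM in WT, 78.1 ± 13.8 in knock-in, 56.2 ± 11.5 in Activin A and 104 ± 21.7 in SB431542 libraries (SD, n = 3 each).

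Other genes of the same machinery were read from 4 lists of names. Over all genes 4.88% passed as higher in knock-in cells, 2.34% passed as lower and 1.61% were called higher. Among 42 tested adaptors and kinases of focal adhesions, 9 passed as higher in knock-in cells and none as lower, with a median log2 fold change of 0.38 against 0.00 over all genes. The 5 called were LIM-domain genes: PDLIM1 (11.6 to 54.3 FPKM, log2 fold change 2.12), AJUBA (1.71), CSRP1 (72.3 to 227 FPKM, 1.66), PDLIM5 (1.25) and PDLIM7 (1.21), with limma adjusted p of 0.00115 to 0.0362. PDLIM7 missed the threshold without any single knock-in line and without WT library 1 or 2 (adjusted p up to 0.118). Of 29 tested actin isoforms, cross-linkers and bundlers, 11 passed as higher and none as lower (median 0.41), and 8 were called. TAGLN, which encodes transgelin, went from 20.9 ± 5.73 to 403 ± 90.3 FPKM (SD, n = 3 each; log2 fold change 4.21, SE 0.23, adjusted p = 0.000664). CNN1 (2.75), ACTA2 (2.61), ACTC1 (2.37) and TPM1 (1.55) followed, with adjusted p of 0.00115 to 0.0119.

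Of 37 tested genes for the assembly and turnover of filaments, 5 passed as higher (PFN1, WDR1, ARPC1B, ACTR3 and CORO1C), none as lower and none was called, with a median of 0.21. In the fit with the library number as a block, 5 adaptors, 9 isoforms and cross-linkers and 2 turnover genes passed as higher in knock-in cells. So did 3 genes of the SRF list described below. The share of all genes that passed in that fit is not given here. Library numbers did not pair knock-in with WT libraries, so these counts only show how the result depends on the fit. PFN1, which encodes profilin 1, went from 90.4 to 136 FPKM (log2 fold change 0.59, limma adjusted p = 0.0175, and up to 0.0792 without knock-in line 1 or 2). WDR1 (0.64, limma adjusted p = 0.0217) passed in 10 of 15 alternatives, with an adjusted p of up to 0.0931. A further list held SRF, its coactivators, FHL genes, and genes such as CCN1 and CCN2 that encode secreted matrix-associated proteins. Of its 6 tested genes, 4 were called higher: CCN1 (3.06), SRF (2.13), CCN2 (1.96) and FHL3 (1.43), with adjusted p of 0.000600 to 0.0306, whereas the coactivator genes MRTFA (0.06) and MRTFB (-0.16) did not pass. CCN1 missed the threshold without knock-in line 1 or 2 or WT library 2 (adjusted p up to 0.0769), CCN2 without any single knock-in line or WT library 1 (up to 0.0824), and FHL3 without any single knock-in line or WT library 1 or 2 (up to 0.102). SRF itself measured 23.6 ± 0.998 FPKM in WT and 107 ± 13.3 FPKM in knock-in libraries (SD, n = 3 each).

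Between Activin A and SB431542, ACTA2, the alpha actin of smooth muscle, was the only gene of these 4 lists to pass. It measured 9.28, 7.52 and 8.17 FPKM with Activin A and 20.6, 18.7 and 18.9 FPKM with SB431542, a log2 fold change of -1.13 (SE 0.10, limma adjusted p = 0.0346). Without Activin A library 1, 2 or 3 the adjusted p was 0.131, 0.117 and 0.0961, and without SB431542 library 1, 2 or 3 it was 0.165, 0.0918 and 0.0996. In the other 3 lists the smallest adjusted p belonged to BCAR1 (-0.56, 0.0701), FERMT2 (-0.80, 0.102), CORO1C (-0.38, 0.151), ARPC5 (0.35, 0.243), CCN2 (1.62, 0.126) and CCN1 (0.98, 0.187), given as log2 fold change and limma adjusted p. With the library number as a block, 10 genes of the lists passed as lower with Activin A and 4 as higher, where 1.21% and 1.66% of all genes did. Those lower were BCAR1, FERMT2 and AJUBA among the adaptors, ACTA2, FLNC, PALLD, TPM1 and TPM2 among the isoforms and cross-linkers, and DSTN and CORO1C among the turnover genes. FERMT2, which encodes the integrin activator kindlin-2, averaged 43.3 FPKM with Activin A and 75.3 FPKM with SB431542 (block adjusted p = 0.0319). Those higher were SRC, ACTG2, LCP1 and CCN2. CCN2 averaged 171 FPKM with Activin A and 55.4 FPKM with SB431542, with a limma adjusted p of 0.0445 with the block, so that it stood opposite to VCL in the treated cells although each was called higher in knock-in than in WT cells.

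**Figure D5:**
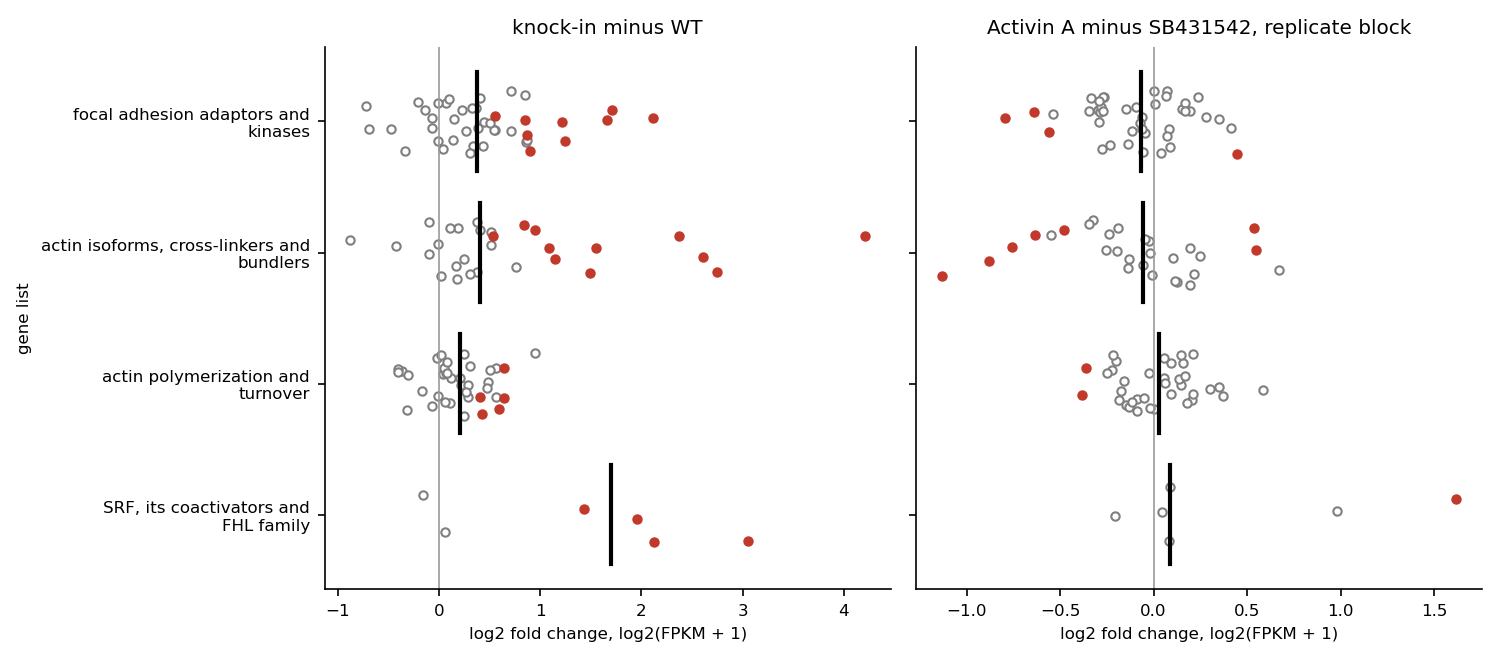
Log2 fold change on the log2(FPKM + 1) scale (x axis) of the other genes in 4 lists (y axis), for knock-in minus WT and for Activin A minus SB431542 with the library number as a block. Each point is a gene, red where its adjusted p is at most 0.05, and black bars are list medians. The genes that pass in knock-in cells all lie above 0, and those that pass in the treated cells lie on either side. The lowest list also holds CCN1 and CCN2.

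Markers of other cell types moved with some of these values. The summed FPKM of 7 smooth muscle markers, which include ACTA2 and CNN1, was 4.30 to 6.70 in WT, 30.7 to 36.3 in knock-in, 22.3 to 25.8 in Activin A and 37.8 to 39.5 in SB431542 libraries, the same order as VCL. Of the 7, only ACTA2 kept that order without overlap. LMOD1 measured 0.116 to 0.152 FPKM in WT, 2.10 to 4.37 in knock-in, 0.995 to 2.30 in Activin A and 2.58 to 6.14 in SB431542 libraries, and MYH11, at no more than 0.103 FPKM, was higher in every SB431542 library than in any Activin A library. CNN1 measured 8.391 to 11.096 FPKM with Activin A and 8.65 to 12.9 with SB431542, SMTN 4.18 to 5.69 and 3.56 to 4.76, and MYOCD, a defining marker, was listed at 0 in every library. The sum of 12 fibroblast or feeder markers was 11.02 to 20.3 in WT, 31.8 to 57.9 in knock-in, 53.5 to 83.5 in Activin A and 23.5 to 31.0 in SB431542 libraries, with COL6A3 and FAP under 0.1 FPKM in every group. COL3A1 ran from 6.57 to 42.9 FPKM with Activin A and from 0.0156 to 2.73 with SB431542, highest in number 3 of each group. COL1A2 ran from 11.2 to 21.3 FPKM and from 3.24 to 4.77. TWIST2 ran from 2.72 to 8.11 FPKM and from 7.18 to 8.09. Of the 8 fibroblast markers tested, 4 had a log2 fold change above 0 between Activin A and SB431542 (median 0.13). TWIST2, COL1A1, FBN1 and PDGFRA were not among these 4. Between knock-in and WT cells 6 of 8 had a log2 fold change above 0 (median 0.89), and DCN and TWIST2 were called higher. The sum of 10 pericyte or mural markers was 28.4 to 32.1 in WT and between 37.0 and 46.5 in the other groups. The part of these cell types in the differences, and that of the 1 h plating that divides cells by attachment, was not tested. In bulk libraries, fewer cells of a type and less RNA per cell cannot be told apart.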

How the data were processed

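The authors trimmed reads with Trim Galore and aligned them to Ssc11.1 with HISAT2 2.0.4. They deposited FPKM values per gene, made with StringTie 1.3.3 and an Ensembl annotation, for 12 libraries in 2 tables; the submitters' processing notes also name bcl2fastq 2.17.1.14, featureCounts 1.6.4 and DESeq2. Whether counting used strand is not given in the sources used here. Columns with the authors' own fold changes and p-values were not used.

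Genes with at least 0.1 FPKM in at least 3 of the 6 libraries of a table were kept (14014 and 13999). Differences of log2(FPKM + 1) were fitted per table with limma 3.58.1 (R 4.3.3, variance trend) and adjusted by the Benjamini-Hochberg method. Single quantities were compared by exact two-sided permutation. On simulated data the fits recovered 184 and 190 of 200 genes changed by a log2 fold change of 2, with 1 and 5 false calls.

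Library numbers come from the sample titles, and the study numbers its 3 knock-in lines in the same way. Deviations of same-numbered Activin A and SB431542 libraries from their group means correlated across 13696 genes (r = 0.404, 0.590 and 0.541), so the number was taken to pair them and the blocked value is given where it changes a call.

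Text names the 10 members, up to 5 called genes per list by size of change (otherwise the 2 with the smallest adjusted p), the 5 genes most like VCL, and NANOG, SMAD7 and LEFTY2 as checks of the labels; names beyond this rule were added after their values were seen. The members and lists were chosen with earlier results of these data known. Coordinates were matched by symbol to RefSeq genes of Sscrofa11.1. A further gene list is not reported here. Planned comparisons of promoters and proteins were not run, and sequences were not used here. The alternatives tried were other pseudocounts, filters and scalings, no variance trend, the block, and leaving out each library.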

Additional observations from a re-analysis of the deposited data

How the results depend on the processing

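Depth and error of FPKM are unknown per gene, and with 3 libraries a group the thresholds were often close. No member that passed changed direction under any alternative run. In knock-in against WT cells, 225 genes were called higher and 99 lower. The counts were 684 and 328 by adjusted p alone and 346 and 192 with a pseudocount of 0.1; lower calls numbered 181 with a pseudocount of 0.01, 42 with no filter, 156 on TPM and 60 with the replicate block. Leaving out a library gave 119 to 298 higher and 28 to 142 lower calls, with 2 to 8 members called and 4 to 9 passing. Numbers did not pair these groups (r = -0.02, 0.01 and 0.10), and with the block ACTG1, PXN and FHL2 had adjusted p of 0.0512, 0.0564 and 0.0791. With no filter PXN and FHL2 had adjusted p of 0.0627 and 0.0644, leaving 7 members passing and 5 called.

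Between Activin A and SB431542, 8 genes were called higher and 5 lower. Higher calls numbered 13 by adjusted p alone, 5 with a pseudocount of 0.01, 3 with no filter, 2 with a filter of 1 FPKM, 3 without the variance trend, 73 with the replicate block and 0 to 4 with a library left out. Lower calls numbered 3, 2 and 3 with that pseudocount, no filter and the 1 FPKM filter, 26 with the block and 0 to 1 with a library left out. VCL missed the threshold with a pseudocount of 0.01 (log2 fold change -1.48, adjusted p = 0.0607), with no filter (-1.45, 0.0950), with a filter of 1 FPKM (-1.45, 0.0567) and with no variance trend (-1.45, 0.0520), so that 0 members were called or passed there; with the replicate block 3 passed. Its range with a library left out was -1.55 to -1.27, and 0 members were called in those fits. Genes that differed by library number fell from 215 to 0 with no filter, and members from 1 to 0 with no filter or no variance trend. The cause of these changes was not tested.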
